A study of Mus musculus with 2 samples.

Results

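The genes described here encode the contractile apparatus of striated muscle: 43 of the 55536 annotated genes, sorted into 14 of fast fibres, 10 of slow fibres, 3 of developing muscle, 14 shared by fibre types and 2 transcription factors. They were chosen by symbol after muscle transcripts had been seen in 1 of the 2 libraries, so measured values selected them, and the difference between the libraries is given as a description with no test. All 43 symbols were found in the files.

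Total RNA was sequenced from the adrenal gland of male mice of the B6CASTF1/J strain at 25 days of age, with no treatment named in the labels. There was 1 group of 2 libraries, each from 300 ng of RNA reduced in ribosomal RNA, with ERCC spike-ins. The biosample labels give animal 3 for replicate 1 and animal 4 for replicate 2, the library labels give animal 3 for both, and the donor label is the same, so the spread between the libraries may be technical. The depth was 35283841 expected counts for replicate 1, close to the 35156690.03 of replicate 2.

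A muscle fibre contracts when myosin thick filaments pull on actin thin filaments within the sarcomere, and calcium released from the sarcoplasmic reticulum lets this happen through troponin and tropomyosin. Fast and slow fibres build the same machine from different paralogues of myosin, its light chains, the troponins, the calcium pump and calsequestrin, while embryonic and neonatal myosins precede the adult ones. The adrenal gland is an endocrine organ of steroid-producing cortex and catecholamine-producing medulla, with no skeletal muscle of its own.

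The myosin heavy chains define the fibre types: Myh1 encodes type 2X, Myh2 type 2A, Myh4 type 2B, Myh7 the slow type 1 chain, Myh8 the neonatal and Myh3 the embryonic chain. Their coding sequences are close enough that reads can be shared, so the sequences are shown first. Over aligned coding bases of the transcript numbered 201 of each gene (GENCODE M21), Myh1 was 91.0% identical to Myh2, 90.1% to Myh4, 89.2% to Myh8, 80.2% to Myh3 and 77.2% to Myh7. The longest run without a difference was 268 bases between Myh1 and Myh2 and 161 bases between Myh1 and Myh4. The stretch of 60 bases with the most positions that vary among the 6 genes (43 of 60) is at coding bases 1837 to 1896 of Myh1. It is printed 5′ to 3′ on the coding strand, with capitals where a gene differs from Myh1.
Myh1: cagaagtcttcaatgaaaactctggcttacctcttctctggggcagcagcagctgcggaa
Myh2: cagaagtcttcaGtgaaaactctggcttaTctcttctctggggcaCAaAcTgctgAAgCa
Myh4: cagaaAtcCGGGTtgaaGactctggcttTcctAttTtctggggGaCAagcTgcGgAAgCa
Myh8: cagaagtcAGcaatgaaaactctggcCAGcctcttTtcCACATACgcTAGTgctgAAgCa
Myh3: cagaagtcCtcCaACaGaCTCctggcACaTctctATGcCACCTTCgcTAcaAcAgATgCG
Myh7: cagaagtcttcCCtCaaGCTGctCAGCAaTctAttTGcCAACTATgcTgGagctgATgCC
In this stretch Myh2 differs from Myh1 at 9 bases, Myh4 at 18, Myh8 at 20, and Myh3 and Myh7 at 29 each.

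A short upstream sequence is shown for 5 genes: Acta1, Ckm and Mylpf, whose transcripts were among the most abundant, and the myosins Myh4 and Myh2. Each is the 150 bases before the RefSeq start site, from the GRCm38.p6 (mm10) promoter table, 5′ to 3′ on the gene's strand. The windows are chr8:123894776-123894925 (minus strand) for Acta1, chr7:19410944-19411093 (plus) for Ckm, chr7:127211458-127211607 (plus) for Mylpf, chr11:67237662-67237811 (plus) for Myh4 and chr11:67170877-67171026 (plus) for Myh2. Capitals mark matches on either strand to TATAAA, to CANNTG (the E-box, which reads the same on both strands as written), to the CArG box or to the MEF2 site. No match overlapped another in these windows.
Acta1: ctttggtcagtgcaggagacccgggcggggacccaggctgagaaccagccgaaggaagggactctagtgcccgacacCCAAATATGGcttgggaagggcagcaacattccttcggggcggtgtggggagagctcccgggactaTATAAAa
Ckm: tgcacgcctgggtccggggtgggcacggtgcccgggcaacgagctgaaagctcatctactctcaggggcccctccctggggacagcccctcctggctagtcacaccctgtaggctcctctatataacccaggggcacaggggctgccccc
Mylpf: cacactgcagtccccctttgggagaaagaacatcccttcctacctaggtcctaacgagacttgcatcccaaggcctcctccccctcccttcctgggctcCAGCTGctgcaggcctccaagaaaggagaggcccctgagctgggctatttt
Myh4: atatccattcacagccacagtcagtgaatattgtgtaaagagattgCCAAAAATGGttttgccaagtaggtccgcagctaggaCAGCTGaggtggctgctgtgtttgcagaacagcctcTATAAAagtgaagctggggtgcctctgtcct
Myh2: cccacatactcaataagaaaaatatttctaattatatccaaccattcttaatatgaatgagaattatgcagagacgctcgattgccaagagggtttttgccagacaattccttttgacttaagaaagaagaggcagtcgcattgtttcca
Acta1 and Myh4 each held a CArG box and TATAAA, and Myh4 and Mylpf each held a CANNTG. The 43 genes had 41 promoters in the table, from 34 genes. Over the 250 bases before the start, a CArG box stood in 4 of these 41 (9.76%, against 1.47% of all 32851 promoters), a MEF2 site in 7 (17.1%, against 2.92%), TATAAA in 8 (19.5%, against 12.4%) and CANNTG in 36 (87.8%, against 66.2%). These letter matches describe the windows and show no binding.

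Fast-fibre genes were present in replicate 1 and nearly missing from replicate 2. Levels are TPM, a share of all transcripts scaled by their length, and come from the first of 2 deposited quantifications unless the second is named. All 14 fast genes had at least 1 TPM in replicate 1, and 2 of them, Myl1 and Mylpf, did in replicate 2. Summed over the 14 genes the level was 1191.83 TPM in replicate 1 against 7.47 TPM in replicate 2. In a bulk sample, fewer cells of a type and less RNA per cell cannot be told apart.

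Among the fast thick-filament genes, Mylpf, the regulatory light chain, stood at 246.87 TPM in replicate 1 against 1.46 TPM in replicate 2. Of these levels, 91.81 and 0.91 TPM lay on Mylpf-203, a retained-intron transcript of 285 bases. The second quantification had Mylpf-203 at 0 TPM in both libraries and the gene at 566.5 and 1.607 TPM. Myl1, the essential light chain, was at 165.68 and 5.28 TPM. Mylk2, the kinase of the regulatory light chain, was at 3.34 and 0 TPM. Both light chains thus stood far above Mylk2 in replicate 1, and Myl1 had the highest level of any fast gene in replicate 2.

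The fast heavy chains lie side by side on chromosome 11 (mm10). Myh1 (67200052 to 67224575, plus strand) stood at 76.87 TPM in replicate 1 against 0.02 TPM in replicate 2. Myh4 (67238029 to 67260446) was at 56.86 and 0.01 TPM. Myh2 (67171027 to 67197517) was at 27.81 and 0 TPM. The type 2X gene was therefore the highest of the 3 and the type 2A gene the lowest, and replicate 2 held 4.67, 2.33 and 0 expected counts of Myh1, Myh4 and Myh2.

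The fast thin-filament genes were as one-sided. Tnnt3, the troponin that binds tropomyosin, stood at 158.45 TPM in replicate 1 against 0.14 TPM in replicate 2. Tnni2, the inhibitory troponin, was at 103.63 and 0 TPM. Tnnc2, the calcium-binding troponin, was at 90.74 and 0.15 TPM. All 3 fast troponins were above 90 TPM in the library that held them. The remaining fast genes handle calcium or anchor the Z disc. Atp2a1, the fast calcium pump SERCA1, was at 120.05 and 0.05 TPM. Pvalb, the calcium buffer parvalbumin, was at 65.3 and 0.03 TPM, and Casq1, which stores calcium in the reticulum, at 27.07 and 0.07 TPM. At the Z disc, Actn3 was at 34.51 and 0.16 TPM and Myoz1 at 14.65 and 0.1 TPM. Each of these last 5 genes was over 100 times higher in replicate 1.

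**Figure D1:**
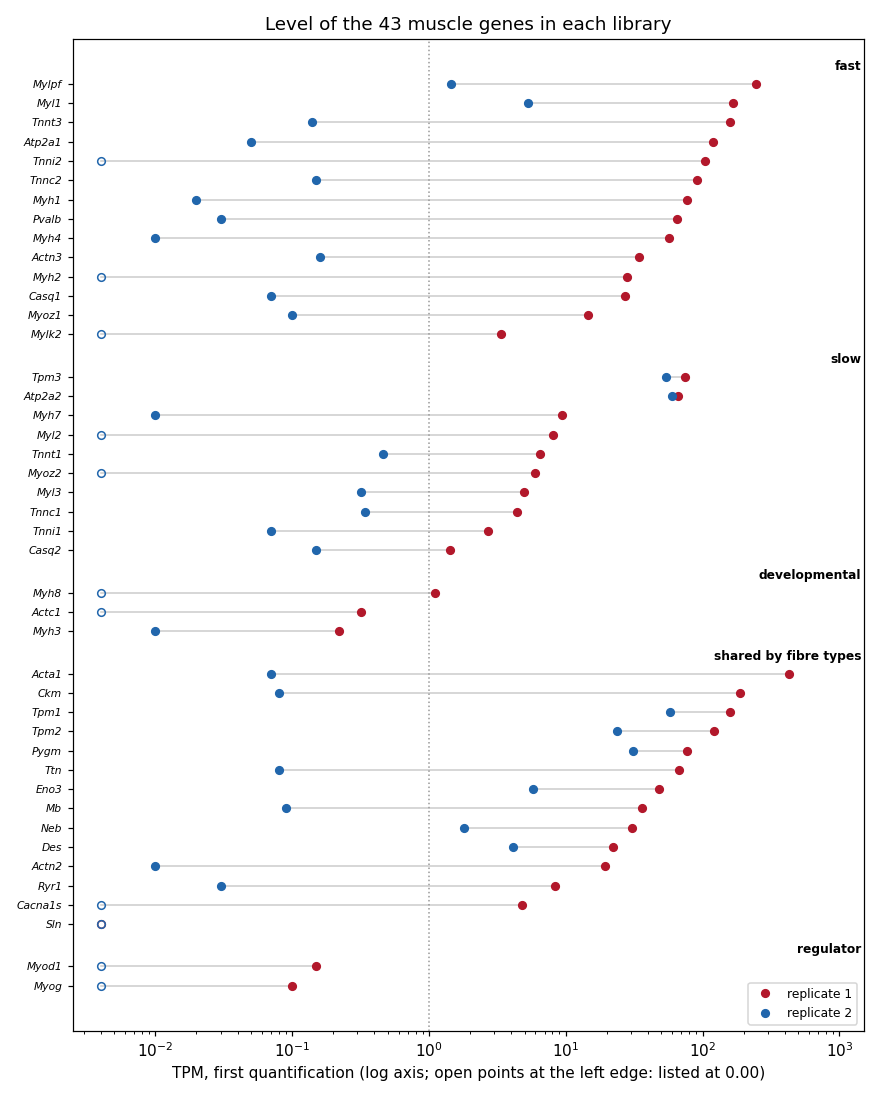
Level of each of the 43 genes in TPM on a log axis, grouped by role, with replicate 1 in red, replicate 2 in blue and open points at the left edge for values listed at 0.00; the dotted line marks 1 TPM. In replicate 1, 38 genes lie at or above 1 TPM, and in replicate 2, 10 do.

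Ratios between the libraries were taken on counts scaled by library size, with an exact 95% interval that covers counting error only; each side is 1 library, so they carry no replicate check and no test. At least 10-fold lower in replicate 2 were 32 of the 43 genes, against 117 of 19801 genes with at least 10 counts in all (0.591%); at least 10-fold higher there were 732 genes (3.7%), none of them among the 43. Because the genes were selected on this contrast, nothing is read from the count. Of the 43, 40 had at least 10 counts, and the exceptions were Sln, Myod1 and Myog. By role, the 32 comprised all 14 fast, 8 of 10 slow, 2 of 3 developmental and 8 of 14 shared genes. At the fold limit, Tnnc1 lay just inside at 11.4-fold (5.31 to 29.1) and Eno3 just outside at 7.94-fold (6.93 to 9.13).

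Counts set how finely each ratio is known. Ttn, with 81121 counts in replicate 1 and 35 in replicate 2, differed 1965-fold (1413 to 2821). Mylpf, with 3697 and 15 counts, differed 209-fold (127 to 374). Acta1, with 19531 and 3 counts, gave a ratio of 5519 (1888 to 26760), and Atp2a1, with 13854 and 2 counts, 5872 (1625 to 48490). For the latter pair the few counts in replicate 2 leave wide intervals. Where replicate 2 had no counts, a floor of 3 counts in that library gave a lower bound. At that floor Myh2 was at least 1571-fold higher in replicate 1 and Tnni2 at least 634-fold, and the lower limits of the 95% intervals were 1277 and 515.

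The slow-fibre genes were lower in replicate 1 than the fast ones, with a median level of 6.21 TPM against 71.09 TPM, and 8 of the 10 were below 0.5 TPM in replicate 2. Myh7, the slow heavy chain, stood at 9.32 TPM in replicate 1 against 0.01 TPM in replicate 2. Myl2, the slow regulatory light chain, was at 8.07 and 0 TPM, and Myl3, the slow essential light chain, at 4.99 and 0.32 TPM. The slow troponins were at 6.45 and 0.46 TPM (Tnnt1), 4.43 and 0.34 TPM (Tnnc1) and 2.72 and 0.07 TPM (Tnni1). Myoz2, a Z-disc calsarcin, was at 5.97 and 0 TPM, and Casq2, the slow and cardiac calsequestrin, at 1.42 and 0.15 TPM. Except for Casq2, these slow genes all lay between 2 and 10 TPM in replicate 1.

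The slow genes Atp2a2 and Tpm3 were alike in the libraries. Atp2a2, the calcium pump SERCA2, is also made in most cell types, and stood at 65.81 TPM in replicate 1 against 60.07 TPM in replicate 2, a ratio of 0.930 (0.904 to 0.957) after scaling. Tpm3, a tropomyosin that also has widely used non-muscle forms, was at 74.07 and 53.64 TPM, a ratio of 1.15 (1.10 to 1.21). They account for most of the summed slow level in replicate 2, 115.06 TPM.

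For 11 pairs of fast and slow counterparts the first gene was the higher in replicate 1 in all 11, in both quantifications and also when raw counts were compared. In the pairs Tpm1 with Tpm3 and Actn3 with Actn2, Tpm1 and Actn2 are counted here among the genes shared by fibre types. The median log2 ratio of fast to slow TPM was 4.25, and the range ran from 0.82 to 5.25. Tnni2 over Tnni1 was highest at 5.25 (4.95 to 5.57), followed by Myl1 over Myl3 at 5.05 (4.81 to 5.30) and Mylpf over Myl2 at 4.94 (4.70 to 5.18). The intervals of these 3 overlap, and the order also changed with the quantification. In the second quantification these pairs were at 4.89, 5.09 and 4.10, and the summed fast heavy chains over Myh7 were highest at 5.12. On counts Myl1 over Myl3 was highest at 5.0, with Tnni2 over Tnni1 at 4.58. The troponins T and C and the calsequestrins lay at 4.62, 4.36 and 4.25, and the summed fast heavy chains over Myh7 at 4.12.

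The remaining 4 pairs had low ratios. Myoz1 over Myoz2 was at 1.30 (1.07 to 1.53) and Actn3 over Actn2 at 0.82 (0.74 to 0.91). Actn2 is made in fast and slow fibres alike. Tpm1 over Tpm3 was at 1.10, and 2.30 once each gene's level in replicate 2 was subtracted. Atp2a1 over Atp2a2 was at 0.87, and 4.39 after the same subtraction. The subtraction used TPM without the scaling between libraries. With that scaling Atp2a2 was not higher in replicate 1 (ratio 0.93), so the 4.39 depends on the unscaled values. For these last 2 pairs, then, the level that both libraries share sets most of the denominator.

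**Figure D2:**
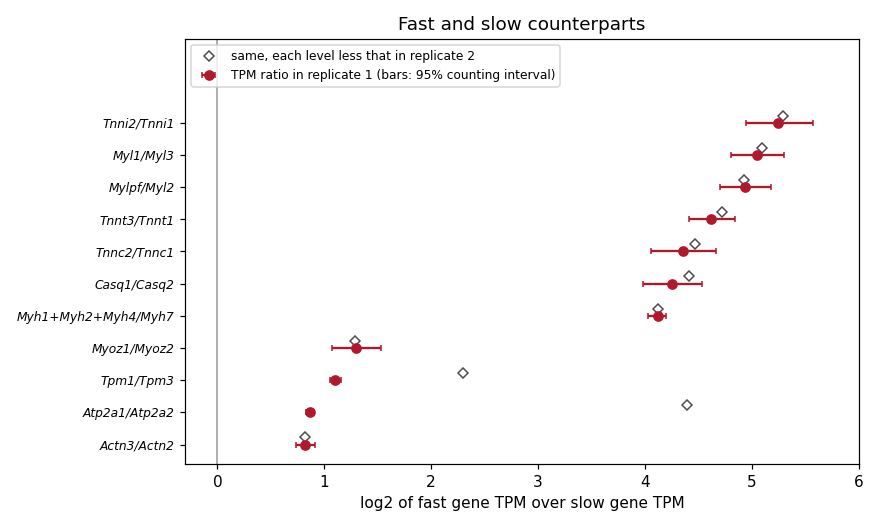
Log2 ratio of fast to slow TPM in replicate 1 for 11 pairs, with 95% counting intervals (red) and the same ratio after subtraction of the level in replicate 2 (open diamonds). All 11 lie above 0, and the subtraction, on TPM not scaled between libraries, moves Atp2a1/Atp2a2 from 0.87 to 4.39.

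The 6 sarcomeric heavy chains summed to 172.19 TPM in replicate 1 against 0.05 TPM in replicate 2, or 33437 and 11 expected counts, so their makeup was read in replicate 1 alone. Of the TPM, Myh1 took 44.6%, Myh4 33.0%, Myh2 16.1%, Myh7 5.41%, Myh8 0.645% and Myh3 0.128%. The 3 adult fast chains together took 93.8% of TPM and 95.4% of counts (exact Clopper-Pearson interval 95.2 to 95.7%). Adult type 2X and 2B chains thus dominated, with type 2A next and slow chains minor.

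The second quantification gave the same order but other shares: 59.9% for Myh1, 24.9% for Myh4, 11.9% for Myh2 and 2.79% for Myh7. The difference in Myh1 lay in Myh1-204, an incomplete coding transcript of 631 bases, which held 5.29% of the gene's TPM in the first quantification and 47.5% in the second. For Myh7, the retained-intron transcript Myh7-206 held 21% of the TPM in the first quantification and 0% in the second. When transcripts with a complete coding sequence alone were summed, a choice made after the values were seen, the shares of the quantifications differed by at most 0.252 percentage points. Myh1 was then at 44.4 and 44.2%, Myh4 at 34.6 and 34.9%, Myh2 at 16.7 and 16.4%, and Myh7 at 3.53 and 3.77%. These paralogues can share reads, which was not measured here, so their shares are uncertain; the deposited posterior SD was 0.173% of the count for Myh1, 0.401% for Myh2 and 2.1% for Myh8.

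**Figure D3:**
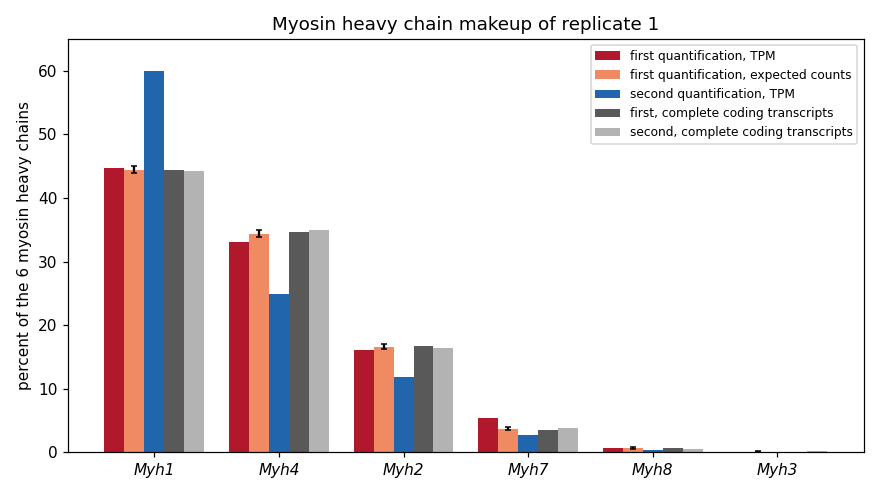
Percent of the summed level of 6 myosin heavy chain genes in replicate 1 by 5 ways of summing; bars on the expected counts are 95% exact intervals. Myh1 stands at 44.6% and 59.9% of TPM in the first and second quantification and at 44.4% and 44.2% over complete coding transcripts.

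Genes of developing muscle were low in both libraries. Myh8 stood at 1.11 TPM in replicate 1 against 0 TPM in replicate 2, and Myh3 at 0.22 and 0.01 TPM. Actc1, the cardiac actin that fetal skeletal muscle also makes, was at 0.32 and 0 TPM, from 15 and 0 counts. Of the regulators that commit cells to muscle, Myod1 had 9 and 0 counts (0.15 and 0 TPM) and Myog had 5 and 0 counts (0.1 and 0 TPM). At these counts the levels are known only roughly.

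Of the genes shared by fibre types, Acta1 led. Acta1, the skeletal actin of the thin filament (chromosome 8, 123891769 to 123894751, minus strand), stood at 425.63 TPM in replicate 1 against 0.07 TPM in replicate 2. It ranked 49 in replicate 1 among nuclear genes whose first listed transcript is typed as protein-coding. Ckm, the muscle creatine kinase, was at 187.77 and 0.08 TPM. These genes, like the giant proteins of the sarcomere, divided the libraries as the fast genes did. Ttn, the spring that spans the sarcomere, was at 67.29 and 0.08 TPM. Neb, the ruler of the thin filament, was at 30.39 and 1.81 TPM, which left 530 counts in replicate 2 beside 9573 in replicate 1. Neb and Myl1 were thus measurable in replicate 2 where most sarcomere genes were not.

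Actn2, at the Z disc, stood at 19.49 TPM in replicate 1 against 0.01 TPM in replicate 2. Mb, the oxygen store myoglobin, was at 36.16 and 0.09 TPM. The channels that couple the action potential to calcium release were low but one-sided: Ryr1 was at 8.41 and 0.03 TPM and Cacna1s at 4.79 and 0 TPM. Sln, sarcolipin, a small inhibitor of the calcium pump, had 0 counts in both libraries, which allows up to 0.072 TPM in replicate 1 against 0.0725 TPM in replicate 2 at 3 counts. Sln was the only one of the 43 genes without a count in replicate 1.

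In contrast to these, 5 shared genes kept a level above 4 TPM in replicate 2. Tpm1 stood at 159.11 TPM in replicate 1 against 58.22 TPM in replicate 2, and Tpm2 at 121.63 and 23.81 TPM; both tropomyosins also serve smooth muscle and other cells. Pygm, the muscle glycogen phosphorylase, was at 76.59 and 30.86 TPM, and Eno3, the muscle enolase, at 47.78 and 5.77 TPM. Des, the intermediate filament desmin, was at 22.15 and 4.1 TPM. Their ratios ran from 2.09 for Tpm1 to 7.94 for Eno3.

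The transcripts of the tropomyosins split by coding length, a division made after the values were seen. Tropomyosin genes give long forms, which include those of striated muscle but are not made there alone. Tpm1 and Tpm3 also give short non-muscle forms. Tpm1 transcripts of 281 to 326 codons summed to 109.9 TPM in replicate 1 against 9.12 TPM in replicate 2, and those of 245 to 251 codons to 39.48 and 33.14 TPM. Tpm3 transcripts of 284 to 285 codons summed to 6.11 and 0.2 TPM, and those of 247 to 248 codons to 47.32 and 37.33 TPM. In this first quantification the long forms of both genes differed between the libraries and the short forms were nearly level. These sums are TPM without scaling between the libraries. In the second quantification the ratio of replicate 1 to replicate 2 was 9.08 for long and 0.715 for short Tpm1 forms. The short Tpm1 forms were thus lower in replicate 1 there. For Tpm3 this ratio was 4.45 for long and 1.32 for short forms.

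Among single transcripts, Tpm1-205 (284 codons) was at 87.22 and 0 TPM, while Tpm1-211 (248 codons) was at 32.29 and 28.05 TPM. The second quantification put Tpm1-205 at 109.6 and 3.105 TPM, but Tpm1-211 at 0 and 26.93 TPM. Whether Tpm1-211 was level between the libraries thus depends on the quantification. The main Tpm2 transcripts all have 284 codons; of them Tpm2-202 was at 42.95 and 1.48 TPM and Tpm2-203 was at 48.38 and 21.04 TPM. Atp2a2 transcripts split less clearly. The form of 998 codons, Atp2a2-202, was at 8.88 and 3.12 TPM, and that of 1044 codons, Atp2a2-201, at 39.97 and 43.12 TPM. In the second quantification these forms were at 23.66 and 14.31 TPM, and at 69.75 and 68.43 TPM, so the difference of the shorter form was smaller there. Its ratio of replicate 1 to replicate 2 was 2.85 in the first and 1.65 in the second quantification, beside 12.1 and 9.08 for long Tpm1 forms. Atp2a2-203, also of 1044 codons but typed as nonsense-mediated decay, was at 15 and 12.24 TPM in the first quantification.

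**Figure D4:**
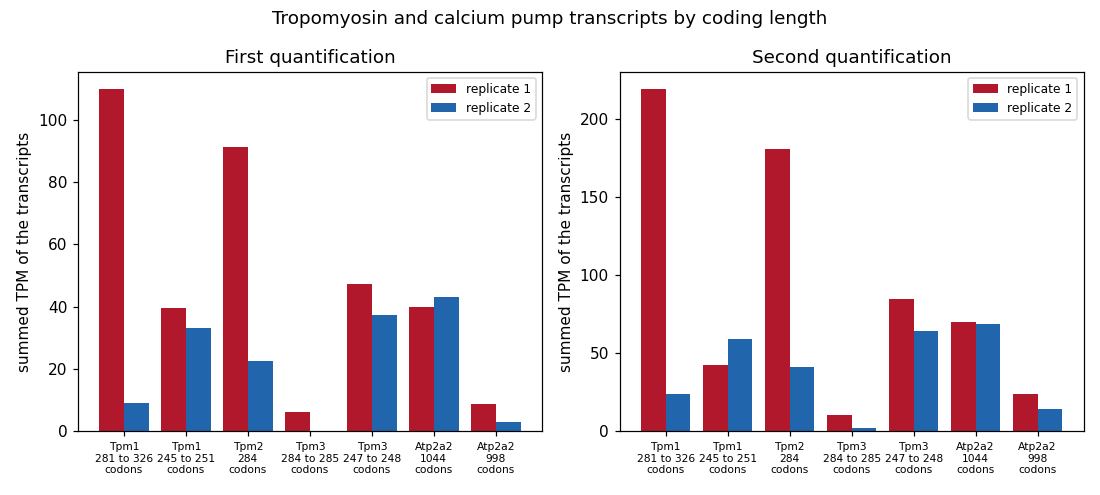
Summed TPM of tropomyosin and Atp2a2 transcripts by coding length, in replicate 1 (red) and replicate 2 (blue), in the first (left) and second (right) quantification. Long Tpm1 forms stand at 109.9 and 9.12 TPM on the left and short ones at 39.48 and 33.14 TPM.

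Transcripts of Atp2a1, Myl1 and Tnnt3 were read in replicate 1. Atp2a1-201, of 994 codons, took 100% of Atp2a1 in replicate 1 in both quantifications. The only other annotated transcript, Atp2a1-202, is an incomplete one of 145 codons, so this share cannot tell full-length forms apart. Myl1 makes a longer and a shorter light chain from separate starts; Myl1-202 (150 codons) was at 94.18 TPM and Myl1-201 (188 codons) at 64.38 TPM in replicate 1. Both forms were thus abundant, although the second quantification put 106.4 TPM on Myl1-207 and 113.9 TPM on Myl1-206, which the first had at 0.85 and 0.52 TPM. For Tnnt3 the leading transcript differed, Tnnt3-211 with 34.9% in the first quantification and Tnnt3-202 with 61.9% in the second. Of 39 genes with more than 1 transcript, 26 had the same leading transcript in both quantifications in replicate 1 and 13 did not. Per gene, the second quantification stood at a median of 1.67 times the first for the 38 genes with at least 1 TPM. The median was 1.72 times for 10584 genes typed as protein-coding. Single genes ran from 1.04 times for Myh7 to 2.72 times for Myh1 and 4.08 times for Myl2.

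Muscle genes outside the 43 were read from 7 further lists of 94 genes. Of the 94, 84 had at least 10 counts and could be called. At least 10-fold lower in replicate 2 were 35 of these, against 117 of 19801 genes in all (0.591%). None was at least 10-fold higher there, against 732 genes in all (3.7%). Over the 84 with at least 10 counts the median log2 ratio of replicate 1 to replicate 2 was 2.66, beside 0.01 over all 19801 genes with as many counts. In the thick filament and M band list 8 of 10 had at least 10 counts and 6 passed 10-fold. Among them were the myosin-binding proteins Mybpc1 (20.23 and 0.41 TPM) and Mybpc2 (15.54 and 0.01 TPM), and also Myh6, which is in the cardiac list below too. In the list of thin filament, Z disc and chaperones 17 of 27 passed. Tcap, the titin cap, was at 21 and 0.07 TPM and Ldb3, a Z-disc protein, at 15.91 and 0.16 TPM, while Fhl1, a LIM-domain protein also made elsewhere, was at 44.83 and 16.44 TPM.

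In the excitation and calcium release list 5 of 15 passed 10-fold. Its 3 highest genes did not: Cacna2d1, a calcium channel subunit, was at 37.66 and 21.6 TPM, Asph at 19.48 and 14.89 TPM, and Srl, sarcalumenin, at 12.37 and 2.28 TPM. In the energy list 4 of 12 passed (Pgam2, Ampd1, Ckmt2 and Cox6a2), and its highest genes did not, Slc25a4 (77.9 and 42.42 TPM), Pfkm (32.89 and 19.52 TPM) and Fabp3 (24.4 and 8.02 TPM). Of 10 genes of the neuromuscular junction 7 had at least 10 counts, and none of these passed; Chrna1 was at 9.32-fold (1.35 to 401) and Colq at 8.48-fold (1.21 to 368), from 11 and 1 and from 10 and 1 counts. The highest were Dok7 (5.08 and 1.94 TPM), Lrp4 (2.05 and 2.09 TPM) and Chrnb1 (0.95 and 0.78 TPM). Of 8 dystrophin complex genes, Sgca passed (1.37 and 0.12 TPM), and Dag1 (49.14 and 42.35 TPM) and Dmd (18.08 and 13.11 TPM) did not. Of 12 regulators and satellite cell genes 7 had at least 10 counts, and Myf6 (1.33 and 0 TPM) and Vgll2 (0.98 and 0 TPM) passed. The highest of that list, the MEF2 factors Mef2d (33.35 and 22.77 TPM), Mef2a (19.97 and 16.74 TPM) and Mef2c (15.84 and 8.44 TPM), did not. Pax7, which marks satellite cells, had 3 and 0 counts, and Myf5 had none in either library.

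Markers of other muscle kinds were set beside these values, since several of the 43 genes are not skeletal alone. Of 9 cardiac genes 5 had at least 10 counts, and 1 of these passed 10-fold. It was Myh6 (1.62 and 0 TPM, 78.97 and 0 counts), which is also in the thick filament list and whose reads can be shared with Myh7. The cardiac list summed to 11.51 TPM in replicate 1 against 7.18 TPM in replicate 2, most of it Ryr2 (7.46 and 5.44 TPM), with Myl4 at 1.29 and 0.81 TPM. The atrial peptide gene Nppa had 0 counts in both libraries, and Mybpc3 had 2 and 1. Of 10 smooth muscle genes none passed, and the list summed to 82.65 and 58.77 TPM, led by Tagln (29.5 and 15.32 TPM), Smtn (18.54 and 16.44 TPM) and Mylk (17.73 and 15.97 TPM).

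Other tissues were also compared between the libraries. Of 6 liver genes all 6 were at least 10-fold higher in replicate 2, with a summed level of 108.0 TPM in replicate 1 and 19130 TPM in replicate 2. They were led in replicate 1 by Cyp2e1 (83.35 and 717.67 TPM), Alb (16.31 and 11948.85 TPM) and Ahsg (3.3 and 2128.7 TPM). Cyp2e1 held most of the sum in replicate 1 and lay on the fold limit, at a ratio of replicate 1 to replicate 2 of 0.0991 (0.0961 to 0.102). For Alb this ratio was 0.00117. The 5 adrenal cortex genes, which check the labelled tissue, summed to 12120 and 6673 TPM and were led by Hsd3b1 (3405.27 and 2014.65 TPM), Star (3265.42 and 1839.96 TPM) and Cyp11a1 (2028.31 and 1113.19 TPM). The 3 brown adipocyte genes summed to 1163 and 765.7 TPM (Cox8b 542.49 and 372.7, Ucp1 391.28 and 219.4, Cidea 229.31 and 173.61). After scaling, ratios of replicate 1 to replicate 2 ran from 1.45 to 1.74 for the cortex genes and from 1.13 to 1.52 for the adipocyte genes. The part of these tissues in the difference of the 43 genes was not tested.

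**Figure D5:**
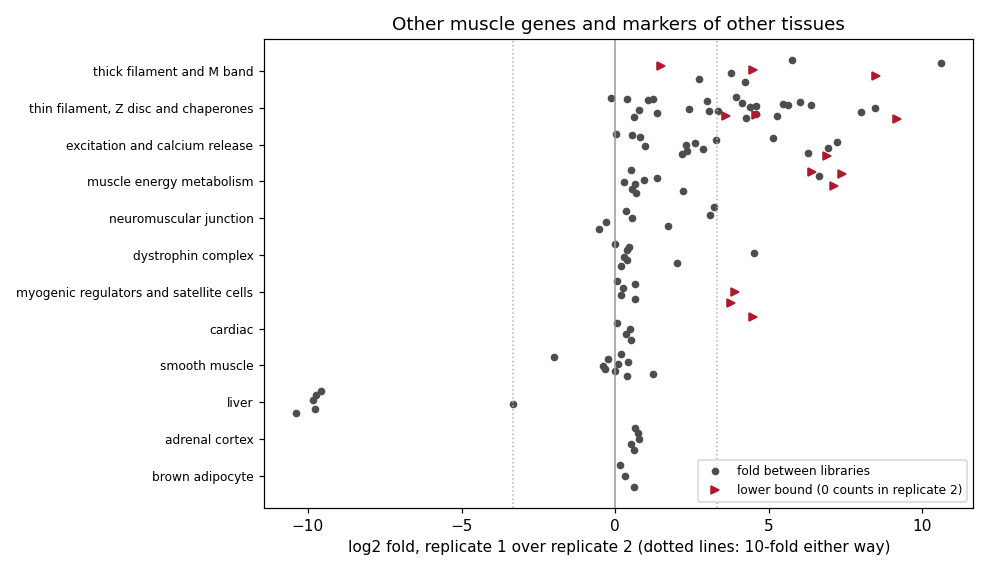
Log2 ratio of replicate 1 to replicate 2 for each gene with at least 10 counts in 7 further muscle lists, cardiac, smooth muscle, liver, adrenal cortex and brown adipocyte lists; red triangles are lower bounds and dotted lines mark 10-fold. In the thin filament list 17 of 27 genes lie beyond the right line, and all 6 liver genes lie beyond the left line.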

How the data were processed

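RNA of 2 adrenal libraries was read from a gene and a transcript table of a first quantification and a transcript table of a second, per the text files deposited on mm10 and annotation M21. The aligner, the quantifiers, their versions and the use of strand are not named in the labels or files read here. Per the file headers, the authors gave expected counts and TPM per gene with a posterior SD of each count (a score here), the percent of a gene's TPM on each transcript, and in the second quantification estimated counts and TPM per transcript.

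The 43 genes, their roles and the other lists were chosen with earlier results of these data known. All 43 are named. Of each other list, the 3 genes with the highest TPM in replicate 1 are named, except some that are not reported here, and transcripts were named from those with at least 20% of a gene in any table. Chosen after their values were seen were the other genes named from a list (those that passed 10-fold or had few counts) and the coding length classes.

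Symbols came from the second table (55450 genes) and coordinates from the GENCODE M21 annotation. Where genes are called protein-coding, the type is that of the first listed transcript and can differ from the gene's own type. Expected counts were rounded and scaled by TMM factors of edgeR 4.0.16 (1.08 and 0.923). Genes with at least 10 counts in total entered the comparison, a count of 0 was set to 3, and a fold of 10 was the limit. Intervals are 95% exact Clopper-Pearson. The ratio function was tested on simulated counts. Spike-ins held 0.839% and 0.915% of counts and stayed out of library sizes. Pair intervals took lengths as fixed. Coding sequences were aligned with MAFFT 7.526. Alternatives were other scalings, no count filter, folds of 2 and 100, the second quantification, raw counts, subtraction of replicate 2 and complete coding transcripts. No test between groups was possible, with 1 group.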

Additional observations from a re-analysis of the deposited data

How the results depend on the processing

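The number of the 43 genes at least 10-fold lower in replicate 2 was 32; it was 31 to 38 under library totals, spike-in totals, the second quantification, no count filter and a limit of 2-fold, and 20 at a limit of 100-fold. The 35 non-member muscle genes became 55 at 2-fold and 10 at 100-fold, and 32 to 40 under the other scalings and the second quantification. Genes with at least 1 TPM in both libraries numbered 10; with each library left out in turn the count ran from 10 to 38 (38 without replicate 2). The fast share of myosin heavy chain TPM, 93.8%, was 96.7% in the second quantification, 95.4% of counts, and, as alternatives chosen after seeing the data, 95.7% and 95.5% over complete coding transcripts of the first and second quantification. The first gene was the higher in 11 of 11 pairs under every alternative run. The subtraction of replicate 2 was made on TPM not scaled between libraries. With scaling Atp2a2 was not higher in replicate 1 (ratio 0.93), so its pair would then have no ratio after subtraction. Of 38 transcript shares recomputed from the second quantification 32 moved beyond their counting interval. Of 28 myosin shares recomputed from the second quantification, counts or complete coding transcripts, 19 moved. Of 33 pair ratios from the second quantification, raw counts or subtraction of replicate 2, 16 moved and none changed sign. Tnnt3-211 went from 34.9% to 0% and Tnnt3-202 from 0% to 61.9% of Tnnt3. No paired analysis was possible because the labels give 1 group of libraries. Counts below about 10 leave Myod1, Myog and most values of replicate 2 known only roughly, and abundant short RNAs can lower all TPM of a library.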

Other observations

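The 117 genes at least 10-fold lower in replicate 2 include 32 of the 43 and 35 of the other muscle lists. The remaining 50 are in neither. By the type of their first listed transcript, which can differ from that of the gene, 36 of the 50 are protein-coding. These 50 were looked at after their values were seen. Several are genes of striated muscle: Cmya5, a titin-binding costamere protein, was at 5.1 TPM in replicate 1 against 0.1 TPM in replicate 2, and Rpl3l, the muscle paralogue of a ribosomal protein, at 5.05 and 0 TPM. Mylk4, a kinase of the myosin light chain kinase family, was at 4.59 and 0.01 TPM, Hspb7, a small heat shock protein, at 4.02 and 0.09 TPM, and Klhl31 at 2.26 and 0 TPM. Apobec2, a muscle member of the cytidine deaminase family, was at 8.91 and 0.45 TPM. The highest of the 50 were the processed pseudogenes Gm10163 (30.66 and 0 TPM) and Gm6361 (17.77 and 0 TPM), whose reads may be shared with their parent genes. The non-coding RNA Nctc1 was at 0.89 and 0 TPM.

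The list also holds genes that pattern the body: Hoxc10 was at 0.53 TPM in replicate 1 against 0.03 TPM in replicate 2 (33 and 2 counts), and Tbx15 at 0.52 and 0.04 TPM (61 and 5 counts).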
